A study of Mus musculus with 8 samples.

Results

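The receptor CD137 (gene Tnfrsf9) and 9 related genes of TNF-family costimulation were followed in CD8 T cells of mouse liver. The genes were chosen by symbol, and all 10 are present among the 22609 gene rows of the deposited counts. They comprise 6 receptors (Tnfrsf9, Tnfrsf4, Tnfrsf18, Tnfrsf1b, Cd27 and Tnfrsf14), 2 ligands (Tnfsf14 and Cd70) and 2 receptor adaptors (Traf1 and Traf2). The 8 RNA-seq libraries came from male C57BL/6J mice aged 6 weeks that had received an anti-CD137 antibody, called agonistic in the study's title, on days 0, 3 and 6 and were analysed on day 8. Live liver cells that were CD45+, TCRβ+ and CD8α+ but lacked MHC class II, NK1.1 and CD4 were sorted as KLRG1+CD127- and split by surface CD11c, with 4 libraries from CD11c+ cells and 4 from CD11c- cells. Both subsets came from antibody-treated animals and no untreated library was analysed here, so no value below measures an effect of the antibody. The labels number the libraries 1 to 4 in each subset and do not say whether these are separate mice. The p-values are therefore about the variation among these 8 libraries, part of which may be technical.

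Receptors of this family are bound by trimeric ligands of the TNF family and recruit TRAF adaptors to their cytoplasmic tails. TRAF1 and TRAF2 bind CD137 and pass its signal to NF-kB and to kinases that favour survival and division of T cells. CD137, OX40 (Tnfrsf4) and GITR (Tnfrsf18) are induced when T cells are activated, whereas CD27 is already present on naive T cells. CD137 agonist antibodies are known for expanding CD8 T cells and for liver inflammation in mice.

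Libraries held 5090345 to 7093163 gene reads, and 10482 to 12581 genes had at least 1 read. Itgax, which encodes CD11c, was at 198 to 357 CPM (reads of a gene divided by the library's TMM-scaled total, in the usual CPM unit) in the CD11c+ libraries and at 4.76 to 17.97 CPM in the CD11c- libraries. The defining T cell markers were abundant in every library, with 10 markers summing to 9711 to 11134 CPM. Markers of other cells were low but not absent. The summed level of 12 monocyte and Kupffer cell markers was 92.4 to 369 CPM in CD11c+ and 94.7 to 202 CPM in CD11c- libraries, that of 6 neutrophil markers was 2.27 to 281 and 6.72 to 109 CPM, that of 9 dendritic cell and MHC class II markers was 102 to 251 and 50.3 to 124 CPM, and that of 8 NK cell and ILC1 markers was 89.9 to 273 and 121 to 182 CPM. CD11c+ replicate 3 held the highest value of each of these 4 sums. Cd7 had the highest mean of the NK cell and ILC1 list (105 CPM). Cd74 had that of the dendritic cell and MHC class II list (59.8 CPM), where Flt3 was at 0 to 4.99 and Clec9a at 0 to 0.779 CPM. Which cells these transcripts came from was not tested. Of the macrophage markers, Lyz2 was at 18.4 to 265 CPM and C1qb at 2.79 to 4.40 CPM in 4 libraries and 0 in the others, while Clec4f, Marco and Timd4 were at 0 in 7 of the 8. Of the neutrophil markers, S100a8 (1.22 to 153 CPM) and S100a9 (1.05 to 103 CPM) were found in all 8 libraries and Elane in none. Of the NK cell markers, Ncr1 was at 0 to 1.78 CPM, and Klre1 was at 57.2 CPM ± 27.02 in CD11c+ against 13.5 ± 1.69 in CD11c- libraries (SD, n = 4 each), without overlap (adjusted p = 0.0637 by edgeR, 3.79e-06 by DESeq2 and 0.0132 by limma voom). Cd7 went the other way, at 86.2 CPM ± 28.2 in CD11c+ against 125 ± 15.9 in CD11c- libraries (SD, n = 4 each), with overlap. Its log2 fold change was -0.53 (edgeR unadjusted p = 0.0325, adjusted p = 0.991). Cd4 was at 0 to 1.56 CPM, and Foxp3, the factor of regulatory T cells, was at 1.86 to 15.3 CPM.

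Per kilobase of exon, Cd27 had the highest level of the 10 genes and Cd70 the lowest. Cd27 was at 332 CPM per kilobase ± 57.5 (SD, n = 8), and its lowest library (270) lay above the highest library of any other gene. Tnfrsf9 (142 ± 40.9), Tnfrsf18 (132 ± 30.1) and Tnfrsf1b (103 ± 19.2) followed, with ranges that overlapped each other. Traf1 (52.5 ± 7.81) and Traf2 (45.01 ± 7.03) lay below these receptors in every library and overlapped each other. Tnfrsf4 (24.6 ± 15.2) overlapped Traf1 and Traf2 above it and Tnfsf14 (19.4 ± 8.62) and Tnfrsf14 below it. Tnfrsf14 (7.93 ± 2.86) and Cd70 (4.61 ± 3.22) came last. The ranges of Tnfsf14 and Tnfrsf14, and of Tnfrsf14 and Cd70, overlapped. Exon lengths were taken from GENCODE M21 and not from the annotation used for counting, so this order is approximate.

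**Figure D1:**
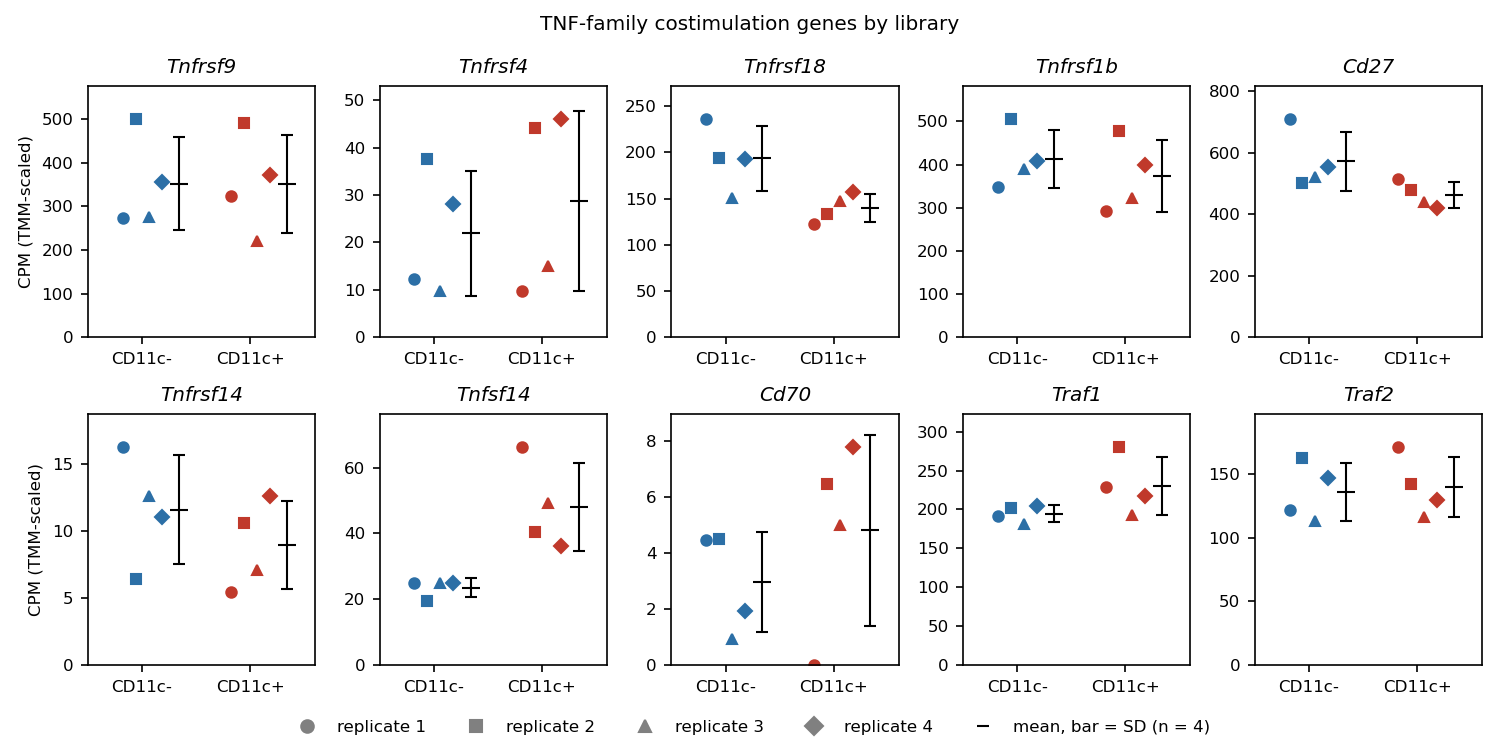
Level of each of the 10 genes in each library (CPM scaled by TMM factors, axes from 0), CD11c- libraries in blue and CD11c+ libraries in red, with the marker shape giving the replicate number and the black bar the mean and SD of 4 libraries. Tnfsf14 is the gene whose 4 CD11c+ libraries (36.3 to 66.5 CPM) all lie above the 4 CD11c- libraries (19.3 to 25.1 CPM), and Tnfrsf9 spreads from 220 to 501 CPM with equal means in both subsets.

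Tnfrsf9, the gene of the receptor that the antibody binds, had the same mean level in both subsets and differed widely between libraries. In CD11c+ replicates 1 to 4 it was at 324, 491, 220 and 373 CPM, and in CD11c- replicates 1 to 4 at 274, 501, 275 and 357 CPM. The subsets overlapped fully, and the replicates numbered 2 and 4 were the highest in each. The means were 352 CPM ± 112 and 352 CPM ± 107 (SD, n = 4 each). The log2 fold change, CD11c+ minus CD11c-, by the quasi-likelihood test of edgeR was -0.00014 (SE 0.24, adjusted p = 0.9999). Its 95% interval was -0.52 to 0.51, so differences within that interval are not excluded. In these bulk libraries, fewer cells with a transcript and less transcript per cell cannot be told apart.

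The spread of Tnfrsf9 and Tnfrsf4 between libraries of one subset was wide for their abundance. On the log2(CPM + 1) scale the within-subset SD of Tnfrsf9 was 0.45, above that of 97.1% of the 2233 tested genes with a mean of at least 100 CPM, whose median SD was 0.20. Read counting alone gives an SD of about 0.033 at its depth. Tnfrsf4 had a within-subset SD of 0.98, above that of 98.5% of the 4369 tested genes at 20 to 100 CPM (median SD 0.34). Cd27 (0.18) and Traf1 (0.17) varied less than most genes of at least 100 CPM, 41.6% and 33.7% of which had a smaller SD.

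Tnfrsf18, which encodes GITR, and Cd27 were lower on average in CD11c+ cells, with overlapping libraries. Tnfrsf18 was at 123, 133, 148 and 157 CPM in CD11c+ replicates 1 to 4 and at 236, 194, 151 and 193 CPM in the CD11c- replicates. Its overlap was narrow, since 1 CD11c+ library (157) lay above the lowest CD11c- library (151). The mean was 140 CPM ± 15.3 against 194 ± 34.9 (SD, n = 4 each), a log2 fold change of -0.47 (SE 0.15, 95% interval -0.80 to -0.13). Its unadjusted p by edgeR was 0.00975 and its adjusted p was 0.945, so it did not pass over all genes. The sum of 6 genes listed as markers of CD4 and regulatory T cells was 101 to 153 CPM in CD11c+ and 159 to 220 CPM in CD11c- libraries, without overlap. Most of it was Ctla4 (72.2 against 105 CPM) and Ikzf2 (50.5 against 77.9 CPM), which CD8 T cells can also express and which each overlapped. Il2ra was at 4.117 CPM ± 3.195 against 1.155 ± 1.045, Foxp3 overlapped, and the sort gate had removed CD4+ cells. The part of these genes' source in the level of Tnfrsf18 was not tested.

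Cd27, the receptor for CD70 and a marker kept by naive and early memory cells, was at 514, 479, 439 and 420 CPM in CD11c+ replicates 1 to 4. In the CD11c- replicates it was at 711, 500, 521 and 555 CPM. Only CD11c+ replicate 1 (514) reached into the CD11c- range, above CD11c- replicate 2 (500). The means were 463 CPM ± 42.0 and 572 ± 95.3 (SD, n = 4 each), with a log2 fold change of -0.30 (SE 0.13, 95% interval -0.58 to -0.03, edgeR adjusted p = 0.991, unadjusted p = 0.0313). Without CD11c- replicate 1, its highest library, the value was -0.19 (SE 0.11).

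Tnfrsf1b, which encodes TNF receptor 2, was at 293, 479, 322 and 400 CPM in CD11c+ replicates 1 to 4 and at 347, 506, 391 and 409 CPM in the CD11c- replicates. The subsets overlapped, and replicates 2 and 4 were again the highest in each. Its log2 fold change was -0.15 (SE 0.16, 95% interval -0.50 to 0.21), and -0.30 to -0.042 with 1 library left out. Tnfrsf4, which encodes OX40, was at 9.78, 44.2, 15.0 and 46.1 CPM in the CD11c+ replicates and at 12.3, 37.5, 9.78 and 28.2 CPM in the CD11c- replicates. Each subset thus had a low pair of libraries (1 and 3) and a high pair (2 and 4). Its log2 fold change was 0.39 (SE 0.53, 95% interval -0.76 to 1.54). It ran from 0.056 without CD11c+ replicate 4 to 0.77 without CD11c- replicate 2. Tnfrsf14, which encodes HVEM, the receptor of LIGHT and BTLA, rested on 28 to 88 reads per library. It was at 5.47, 10.7, 7.13 and 12.6 CPM and at 16.3, 6.44, 12.6 and 11.1 CPM, with a log2 fold change of -0.37 (SE 0.44, 95% interval -1.32 to 0.58), and -0.59 to -0.17 with 1 library left out. The edgeR adjusted p of these 3 receptors was 0.991 or 0.992.

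Of the ligands, Tnfsf14 had the largest difference in mean level. It encodes LIGHT, which binds HVEM and the lymphotoxin β receptor and costimulates T cells. It was at 66.5, 40.5, 49.4 and 36.3 CPM in CD11c+ replicates 1 to 4 and at 25.1, 19.3, 24.8 and 24.8 CPM in the CD11c- replicates. Every CD11c+ library lay above every CD11c- library, which held for 1 of the 10 genes and for 1.6% of all tested genes. Separation in the lower direction was found for 0 of the 10 and 1.85% of all, and in either direction for 3.44% of all. The mean was 48.2 CPM ± 13.4 against 23.5 ± 2.79 (SD, n = 4 each), and the log2 fold change was 1.03 (SE 0.24, 95% interval 0.51 to 1.56). By edgeR the unadjusted p was 0.00103 and the adjusted p 0.401, so Tnfsf14 did not pass over all genes. DESeq2 called it higher (adjusted p = 0.0279) and limma voom with quality weights did not (adjusted p = 0.263). Over all alternatives its adjusted p ran from 0.0279 to 0.986 and its log2 fold change from 0.84 to 1.14. The summed markers of dendritic cells and MHC class II had a mean of 173 CPM ± 77.8 for CD11c+ against 71.7 ± 35.3 for CD11c- (SD, n = 4 each), with overlap, and their part in the level of Tnfsf14 was not tested.

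Cd70, the ligand of CD27, was near the limit of detection. CD11c+ replicate 1 had 0 reads, which allows up to 0.587 CPM, and the other CD11c+ libraries had 37, 28 and 50 reads (6.46, 4.99 and 7.79 CPM). The CD11c- libraries had 24, 32, 5 and 11 reads (4.46, 4.48, 0.941 and 1.94 CPM). The subsets overlapped, and the log2 fold change of 0.70 had an SE of 0.97 (95% interval -1.40 to 2.80). It was 1.11 without CD11c+ replicate 1 and 0.36 without CD11c+ replicate 4. The limit of 0.587 CPM covers counting error only.

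Traf1, an adaptor that is itself induced by NF-kB, was at 229, 281, 193 and 217 CPM in CD11c+ replicates 1 to 4 and at 191, 202, 181 and 205 CPM in the CD11c- replicates. The CD11c+ mean was 230 CPM ± 37.0 and the CD11c- mean 195 ± 10.9 (SD, n = 4 each), with overlapping libraries. Its log2 fold change was 0.24 (SE 0.13, 95% interval -0.05 to 0.53, edgeR adjusted p = 0.991), and 0.12 without CD11c+ replicate 2. Traf2, the adaptor that links these receptors to cIAP ubiquitin ligases, was at 172, 142, 116 and 130 CPM and at 121, 162, 113 and 147 CPM, with a log2 fold change of 0.04 (SE 0.16, 95% interval -0.31 to 0.40). Neither adaptor separated the subsets.

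**Figure D2:**
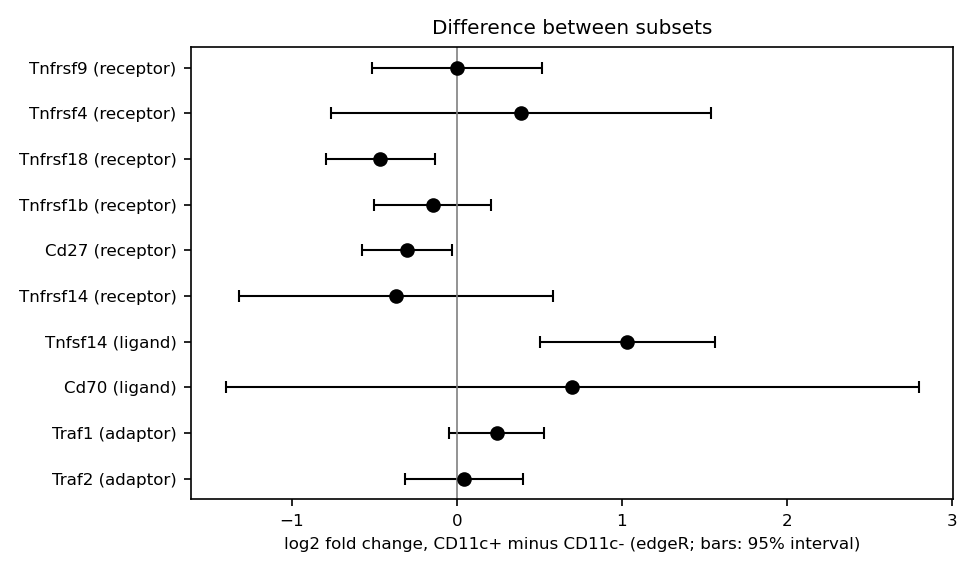
Log2 fold change of each of the 10 genes, CD11c+ minus CD11c-, by edgeR's quasi-likelihood fit over all tested genes, with bars for the 95% interval, which is not adjusted for the number of genes. The intervals of Tnfsf14 (0.51 to 1.56), Tnfrsf18 (-0.80 to -0.13) and Cd27 (-0.58 to -0.03, with a value of -0.19 instead of -0.30 without CD11c- replicate 1) leave out 0, and Cd70 has the widest interval.

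Over all 10 genes, 0 passed the threshold of 0.05 adjusted over the 10073 tested genes by edgeR, where 0.0496% of all tested genes passed (0.0298% higher and 0.0199% lower). DESeq2 called 1 (Tnfsf14) and called 0.296% of the genes it tested. Limma voom with quality weights called 0, and 0.189% of all. The other dispersion setting of edgeR (legacy=FALSE) called 0, and 0.109% of all. Of the 10 genes 3 had an unadjusted edgeR p under 0.05, against 4.7% of all tested genes. These were 1 higher (Tnfsf14; 2.43% of all) and 2 lower (Tnfrsf18 and Cd27; 2.26% of all). Positive log2 fold changes were found for 5 genes and negative ones for 5, and their median was 0.02 against 0.01 for every gene tested. All 10 passed the filter on low counts.

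Tnfrsf9, Tnfrsf4 and Tnfrsf1b were high in the same libraries. Over the 8 libraries, Pearson's r of log2(CPM + 1) between Tnfrsf9 and Tnfrsf1b was 0.80 (exact permutation p = 0.0171, Spearman's rho = 0.83 with exact permutation p = 0.0154). Between Tnfrsf9 and Tnfrsf4 it was 0.78 (exact permutation p = 0.0302, rho = 0.67 with exact permutation p = 0.0831), and between Tnfrsf4 and Tnfrsf1b it was 0.78 (exact permutation p = 0.0301, rho = 0.74 with exact permutation p = 0.0458). All 45 pairs of the 10 genes were computed, and adjusted over them these 3 had p = 0.340 by Pearson, so none passed. Adjusted p of rho was 0.346, 0.496 and 0.412. Without the 2 libraries farthest from the median of the first-named gene, r was 0.66, 0.84 and 0.80, and centred within each subset it was 0.84, 0.79 and 0.89.

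The shared pattern lay between the replicate numbers. When values were centred within each number, r fell to 0.20 for Tnfrsf9 with Tnfrsf1b and turned to -0.55 for Tnfrsf9 with Tnfrsf4 and to -0.34 for Tnfrsf4 with Tnfrsf1b. What the numbers stand for is not given in the labels. The permutation p-values treat the 8 libraries as exchangeable, and they may be too small if same-numbered libraries share a source. Without CD11c+ replicate 1 the pair Tnfrsf9 and Tnfrsf1b passed over the 45 pairs (r = 0.96, n = 7, exact permutation test, adjusted p = 0.0268). Tnfrsf18 and Tnfsf14 ran in opposite directions (r = -0.79, exact permutation p = 0.0217, adjusted p = 0.340; rho = -0.74, exact permutation p = 0.0458, adjusted p = 0.412). Without the 2 farthest libraries that r was -0.79, and centred within each subset it was -0.36. Tnfrsf4 and Cd70 had the highest rank correlation of the 45 (rho = 0.88, exact permutation p = 0.00724, adjusted p = 0.326; r = 0.70, exact permutation p = 0.0565, adjusted p = 0.429; r = 0.51 without the 2 farthest libraries). Of the 45 pairs, 0 passed the adjusted threshold of 0.05, 4 had an unadjusted Pearson p under 0.05, and 25 had a positive and 20 a negative r.

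**Figure D3:**
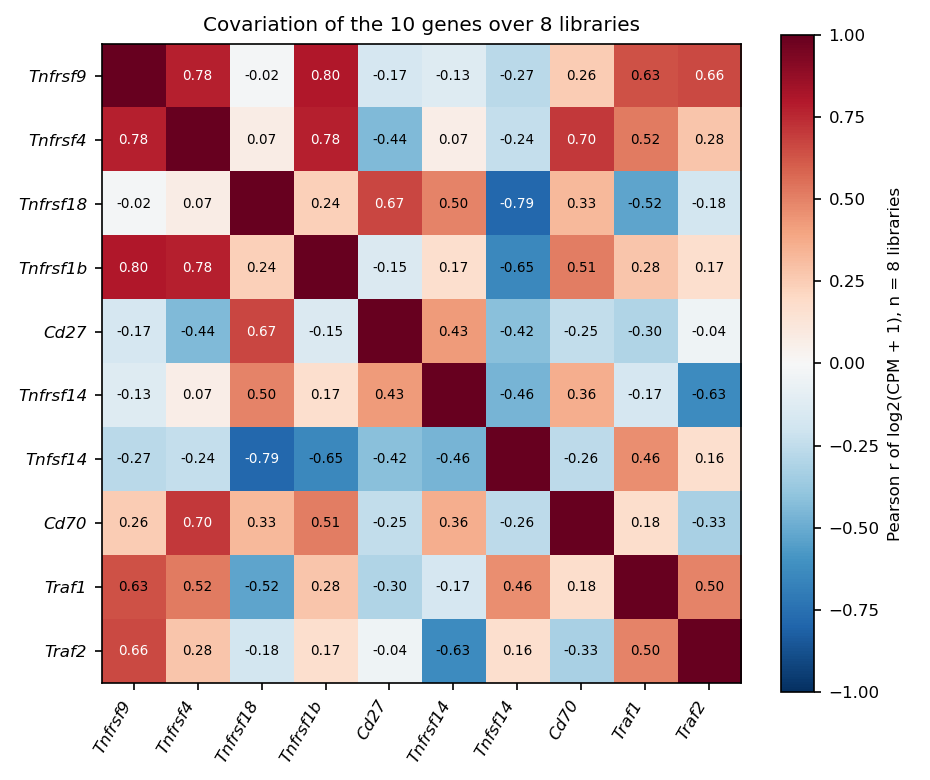
Pearson's r of log2(CPM + 1) between each pair of the 10 genes over 8 libraries, from -1 (blue) to 1 (red). Tnfrsf9, Tnfrsf4 and Tnfrsf1b form the block of high values (0.78 to 0.80), and the lowest value is that of Tnfrsf18 with Tnfsf14 (-0.79).

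Depth and markers of other cells moved with these receptors in part. Over 30 relations of Tnfrsf9, Tnfrsf4 and Tnfrsf1b with 10 library measures, none passed the adjusted threshold. Tnfrsf9 was low where the summed neutrophil markers were high (r = -0.88, exact permutation p = 0.00476, adjusted p = 0.128; rho = -0.67, exact permutation p = 0.0831, adjusted p = 0.415; r = -0.77 without the 2 farthest libraries). With the summed monocyte and Kupffer cell markers r was -0.83 (exact permutation p = 0.0113, adjusted p = 0.128; rho = -0.62, exact permutation p = 0.115, adjusted p = 0.431; r = -0.58 without the 2 farthest libraries). With the summed NK cell and ILC1 markers r was -0.75 (exact permutation p = 0.0315, adjusted p = 0.236; rho = -0.57, exact permutation p = 0.151, adjusted p = 0.472; r = -0.54 without the 2 farthest libraries). Tnfrsf4 was high where libraries held more gene reads (r = 0.79, exact permutation p = 0.0128, adjusted p = 0.128; rho = 0.88, exact permutation p = 0.00724, adjusted p = 0.217; r = 0.91 without the 2 farthest libraries). Centred within each number, these 4 r were -0.53, -0.80, -0.43 and 0.31. Tnfrsf1b also had a positive r with gene reads (r = 0.71, exact permutation p = 0.0479, adjusted p = 0.287). Its rho was 0.81 (exact permutation p = 0.0218, adjusted p = 0.327). Its r was 0.23 without the 2 farthest libraries and 0.07 centred within each number. For Tnfrsf9 with gene reads r was 0.60 (exact permutation p = 0.114, adjusted p = 0.399), and -0.22 centred within each number. The part of depth and of other cells in the spread of these genes was not tested.

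Of 6594 tested genes with a mean of at least 20 CPM other than the 10 themselves, the 5 most like Tnfrsf9 over the 8 libraries were Hspa4 (r = 0.96), Nfkb2 (0.95), 2310035C23Rik (0.95), Blmh (0.95) and Nasp (0.94). These genes were picked for their likeness, so the values are a description. The median r over the genes searched was 0.01, and 19 had an r over 0.9. Nfkb2 encodes p100, the precursor of the p52 subunit of the non-canonical NF-kB pathway. It was at 156, 256, 118 and 234 CPM in CD11c+ replicates 1 to 4 and at 158, 253, 143 and 210 CPM in the CD11c- replicates, so that replicates 2 and 4 were the highest in each subset, as for Tnfrsf9. Its means were 191 CPM ± 65.2 and 191 ± 50.1 (SD, n = 4 each), with a log2 fold change of 0.00058 (SE 0.24), whose sign turned in 4 settings and in 4 of the 8 fits without 1 library.

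After Nfkb2 was seen there, Tnfrsf9 was set against all 16 genes of the NF-kB list. As Nfkb2 had been picked for its r among 6594 genes, its r of 0.95 and rho of 0.90 are a description and carry no test. Its r was 0.93 to 0.97 with each library left out in turn, 0.92 without the 2 farthest libraries, 0.95 centred within each subset and 0.71 centred within each number. Relb, whose protein pairs with p52, followed (r = 0.78, exact permutation p = 0.0231, adjusted p = 0.136; rho = 0.69, exact permutation p = 0.0694, adjusted p = 0.278; r = 0.57 without the 2 farthest libraries). Nfkbia, the NF-kB inhibitor and target, was close to it (r = 0.78, exact permutation p = 0.0255, adjusted p = 0.136; rho = 0.76, exact permutation p = 0.0368, adjusted p = 0.278; r = 0.54 without the 2 farthest libraries). Centred within each number these were 0.03 and -0.42. Nfkb1, which encodes the p50 precursor, had the lowest r (-0.57, exact permutation p = 0.142, adjusted p = 0.453; rho = -0.40, exact permutation p = 0.327, adjusted p = 0.581; r = -0.28 without the 2 farthest libraries). The median r of the 16 was 0.13, and 11 were positive.

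**Figure D4:**
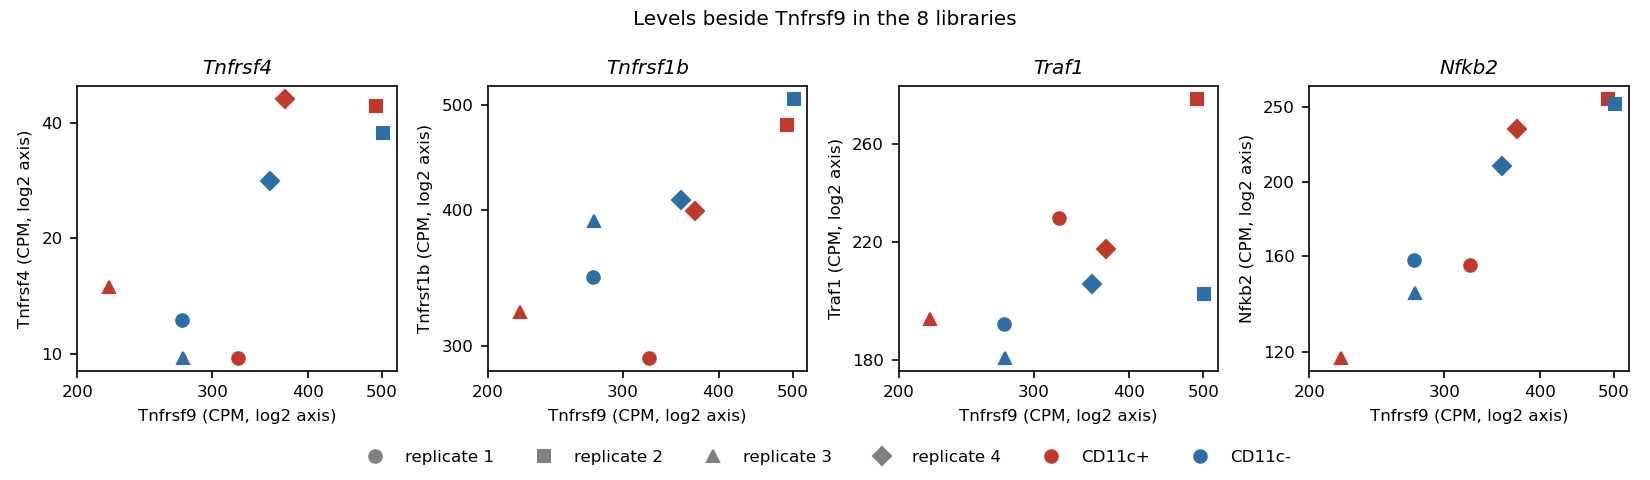
Level of Tnfrsf4, Tnfrsf1b, Traf1 and Nfkb2 against that of Tnfrsf9 in the 8 libraries (CPM, log2 axes), coloured by subset and shaped by replicate number. The libraries numbered 2 and 4 of both subsets lie to the upper right for Tnfrsf4, Tnfrsf1b and Nfkb2, and Nfkb2 lies closest to a line (r = 0.95).

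The sequence before a RefSeq start of Tnfrsf9 and of Nfkb2 is shown because these genes moved together and both stretches hold matches to the NF-kB consensus. The sequence of Tnfsf14 is shown for the AP-1 motif of the gene whose libraries did not overlap. Promoters were taken from RefSeq (GRCm38.p6) for the 9 of the 10 genes with an entry, as 250 bases before each start, and were searched on both strands for the NF-kB consensus and for the AP-1 motif TGANTCA. Each line gives 60 bases 5′ to 3′ on the gene's strand, with the matches in capitals.
Tnfrsf9, GRCm38.p6 chr4:150927939-150927998, plus strand, the 60 bases before the second of 2 starts: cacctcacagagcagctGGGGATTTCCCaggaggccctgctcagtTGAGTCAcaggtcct
Nfkb2, GRCm38.p6 chr19:46304677-46304736, plus strand, the 60 bases before the first of 3 starts: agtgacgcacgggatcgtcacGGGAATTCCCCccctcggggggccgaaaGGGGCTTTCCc
Tnfsf14, GRCm38.p6 chr17:57194309-57194368, minus strand, bases 187 to 128 before the start: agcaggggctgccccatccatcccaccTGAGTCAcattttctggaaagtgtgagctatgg
In Tnfrsf9 the capitals mark an NF-kB match, made of 2 overlapping ones from 43 to 33 bases before the start, and an AP-1 match from 15 to 9 bases before it. In Nfkb2 they mark NF-kB matches only, and in Tnfsf14 an AP-1 match from 160 to 154 bases before the start. Of all 32851 RefSeq windows of 250 bases, 7.25% held the NF-kB consensus, 6.75% the AP-1 motif and 0.356% both. This Tnfrsf9 window held both, its other window held neither, and it was the only NF-kB match among the 9 genes searched. The AP-1 motif was found in 2 of the 9 genes, Tnfrsf9 and Tnfsf14. The printed stretches were picked for holding matches. Of the 5 genes most like Tnfrsf9, 4 had a window and 1, Nfkb2, held the NF-kB consensus. Hspa4, Blmh and Nasp held no match to it. The counts do not show which start was used. A match describes letters in a window and not a bound site.

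Of the rest of the family and its pathway, 78 genes from 6 lists were tested. With adjustment over every gene, edgeR called 0 of them, as did DESeq2 and limma voom, and 2 had an unadjusted edgeR p under 0.05, where 4.7% of all tested genes did. Libraries of the subsets did not overlap for 1 gene each of the receptor, ligand, TRAF and NF-kB lists (Tnfrsf26, Tnfsf9, Cflar and Nfkbid). No survival or partner gene was separated, and 3.44% of all tested genes were. Cflar, named for its separation only, was at 65.6 to 86.2 CPM in CD11c+ and 60.2 to 64.9 CPM in CD11c- libraries. Of 20 other TNF receptors 8 were tested, and 1 had an unadjusted p under 0.05. This was Tnfrsf26, with a mean of 9.78 CPM ± 2.92 among CD11c+ and 21.3 ± 8.63 among CD11c- libraries (SD, n = 4 each; log2 fold change -1.12, SE 0.37, edgeR adjusted p = 0.945). Its libraries did not overlap. Fas, the death receptor, was at 68.6 CPM ± 13.6 and 58.2 ± 8.36, and Relt at 44.9 ± 8.64 and 48.1 ± 1.64. Of the log2 fold changes 3 were positive and 5 negative, and the list's median was -0.10.

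Of the 16 other TNF ligands 8 were tested, and 0 had an unadjusted p under 0.05, 5 being positive and 3 negative, and the median log2 fold change was 0.16. Ltb, a chain of membrane lymphotoxin, was at 355 CPM ± 41.4 and 418 ± 62.0 (log2 fold change -0.24, SE 0.13). Fasl, the ligand of Fas, was at 288 ± 23.9 and 273 ± 35.7. Tnfsf9, the ligand of CD137, is named after its values were seen. It was at 24.8, 16.8, 23.0 and 21.04 CPM in CD11c+ replicates 1 to 4 and at 7.80, 16.7, 15.99 and 14.3 CPM in the CD11c- replicates. The CD11c+ libraries lay above the CD11c- libraries, by 16.76 against 16.67 CPM at the nearest. Its log2 fold change was 0.64 (SE 0.32, edgeR unadjusted p = 0.0672, adjusted p = 0.991).

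In the RefSeq gene order Tnfsf9 and Cd70 are neighbours with 0 genes between them, and 1 gene lies between Cd70 and Tnfsf14. The log2 fold changes of these 3 ligand genes were 0.64, 0.70 and 1.03, with SEs of 0.32, 0.97 and 0.24 in that order. Over the 8 libraries, Cd70 and Tnfsf14 had an r of -0.26 (exact permutation p = 0.530, adjusted p over 45 pairs = 0.798). Their rho was 0.095 (exact permutation p = 0.840). Their r was -0.86 centred within each subset and 0.53 without the 2 farthest libraries, so its sign was not stable. Tnfsf9 was not in the 45 pairs, and whether the 3 genes move together was not tested. Tnfrsf4 and Tnfrsf18 also lie close together, with 2 genes between them, neither protein-coding. Their log2 fold changes were 0.39 and -0.47, and their r over the 8 libraries was 0.07 (exact permutation p = 0.868, adjusted p over 45 pairs = 0.915; rho = 0.21, exact permutation p = 0.619, adjusted p = 0.844; r = 0.48 without the 2 farthest libraries).

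Downstream of the receptors, the list medians lay near that of all genes. Of 27 tested TRAF and proximal signalling genes, 0 had an unadjusted p under 0.05, 12 being positive and 15 negative, and the median log2 fold change was -0.01. Rbck1, a subunit of the linear ubiquitin ligase, was at 366 CPM ± 50.3 and 385 ± 37.2, and Tnfaip3, which encodes the NF-kB brake A20, at 265 ± 28.2 and 297 ± 70.8. Of 16 tested NF-kB genes 1 had an unadjusted p under 0.05, with 11 positive and 5 negative values and a median of 0.03. That gene was Nfkbid, an atypical nuclear IκB, at 64.7 CPM ± 17.7 against 37.2 ± 6.72 (SD, n = 4 each). Its lowest CD11c+ library (45.5) lay above its highest CD11c- library (42.3), and its log2 fold change was 0.80 (SE 0.24, edgeR adjusted p = 0.856). Nfkbia was at 358 CPM ± 49.6 and 397 ± 61.5.

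Survival and partner genes also did not pass. Of 12 tested of 14 survival genes, 0 had an unadjusted p under 0.05, with a median log2 fold change of 0.06. Birc5, which encodes survivin, was at 477 CPM ± 52.3 and 439 ± 41.7, and Bcl2 at 101 ± 19.7 and 124 ± 37.2. Of 7 tested receptor partners and CD28-family genes 0 had an unadjusted p under 0.05, with a median of 0.02. Lgals9, which encodes galectin-9, a binding partner of CD137, was at 294 CPM ± 56.3 and 335 ± 48.3, and Cd5 was at 306 ± 31.3 and 301 ± 29.1.

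**Figure D5:**
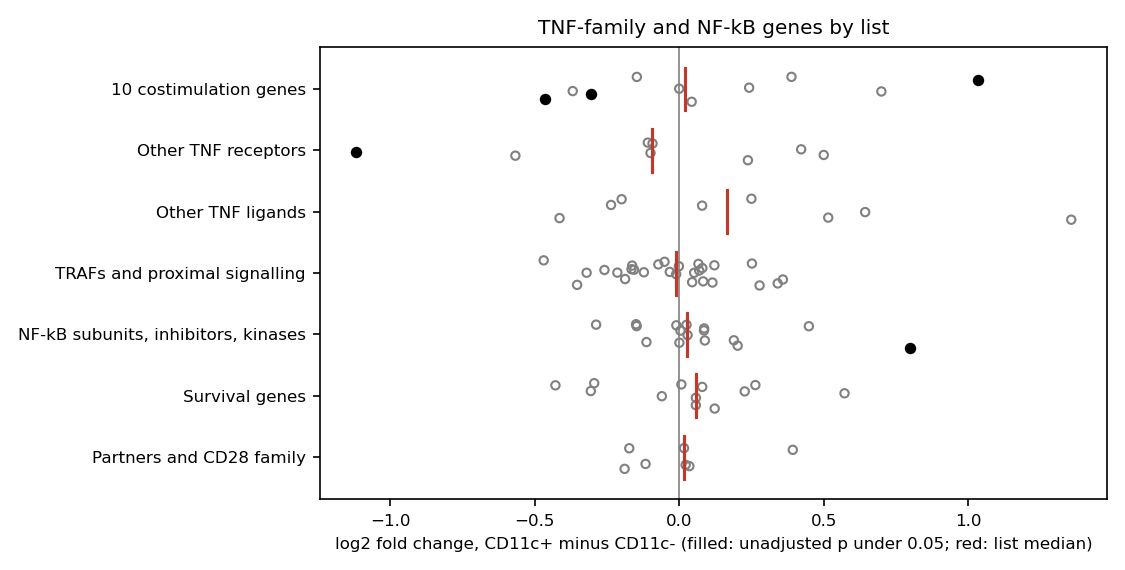
Log2 fold change, CD11c+ minus CD11c-, of the 10 genes and of the tested genes of 6 pathway lists, with filled points for an unadjusted p under 0.05 and a red line at each list's median. The list medians lie between -0.10 and 0.16, and the filled points outside the 10 genes are Tnfrsf26 (-1.12) and Nfkbid (0.80).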

How the data were processed

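The 10 genes and all gene lists were chosen with earlier results of these data known. Per the labels' protocols, sorted cells' RNA was amplified by SMART-seq2 (10 to 12 cycles) and read as 50 bp single reads. The submitters' processing notes name TopHat2 2.0.8b, HTSeq and bcl2fastq and the build mm9. For the annotation and the strand setting, nothing is given in the sources used here, so antisense or overlapping genes cannot be told apart. The deposited values are raw read counts per gene symbol. The 5 summary rows stayed out, reads outside genes being 63.1% to 67.1% of uniquely placed reads.

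The main test was the quasi-likelihood test of edgeR 4.0.16 (R 4.3.3) after filterByExpr and TMM scaling, adjusted by Benjamini-Hochberg over 10073 genes. SE is the log2 fold change over the root of F. Alternatives were other scalings and filters, a replicate block, DESeq2 1.42.0, limma 3.58.1 voom, legacy=FALSE, a threshold of 0.01 and each library left out. The steps were tested on simulated data.

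Named pathway genes were those past the threshold, then up to 3 of smallest unadjusted p under 0.05, then the 2 of highest CPM per list. Older symbols were matched, and 1 listed marker had no match. Promoters are RefSeq's (GRCm38.p6) and exon lengths GENCODE M21's. Within subsets, library pairs differed beyond the noise of read sampling (chi-square per degree of freedom at least 9.43). Each library was counted as 1 sample. Separate preparations from 1 mouse could also differ this way, so the check does not show separate mice.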

Additional observations from a re-analysis of the deposited data

Results flagged for a closer look

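In 5 of 50 groups of 4 libraries checked, the gap between the highest or lowest library and its nearest neighbour, as a share of the group's range, was above Dixon's 95% critical value for 4 values. By the definition of that test, chance passes about 1 in 20 groups. Tnfsf14 was lowest in CD11c- replicate 2, at 19.3 CPM, with the other 3 libraries at 24.8 to 25.1 CPM. Cd5 was lowest in replicate 1 of both subsets, at 258 CPM in CD11c- and 260 CPM (259.6) in CD11c+ cells. Ltb was highest in CD11c- replicate 4, at 510 CPM (510.4). Tnfrsf26 was highest in CD11c- replicate 3, at 34.2 CPM.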

How the results depend on the processing

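Of the 10 costimulation genes, 0 were called by edgeR in every setting and in every fit without 1 library, and DESeq2 called 1 (Tnfsf14, log2 fold change 1.03). Over all genes 5 were called, against 12 with no filter, 8 with the stricter filter, 13 with the replicate block, 36 by DESeq2, 19 by limma voom, 11 with legacy=FALSE, 1 at a threshold of 0.01 and 1 to 5 without 1 library. The log2 fold change of Tnfrsf9 was 0.00055 with RLE factors, 0.0023 by library size and 0.00093 by DESeq2, and -0.21 to 0.21 without 1 library. By limma voom Tnfrsf14 was at 0.082 and Traf2 at -0.057 (-0.071 to 0.13 without 1 library). Nfkb2 was at -0.012 with no filter, -0.00056 with the stricter filter, -0.029 with the block, -0.0040 with legacy=FALSE and -0.18 to 0.17 without 1 library, and Cd5 at -0.054 to 0.092 without 1 library. The cause of these turns was not tested. The pathway count stayed at 0 in every setting. Correlated pairs numbered 0, and 0 to 1 without 1 library (Tnfrsf9 with Tnfrsf1b, without CD11c+ replicate 1). The stricter filter removed Cd70.

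The labels do not say whether same-numbered libraries are pairs, so the main test did not pair them. Deviations of same-numbered libraries correlated at 0.079, 0.187, 0.128 and 0.192, and each library correlated best with its own number, a hint from the data and not the design. With the replicate block the SE of Tnfrsf9 was 0.11, and no call among the 10 genes changed. Centred within each number (replicate block), r was -0.55 for Tnfrsf9 with Tnfrsf4, -0.34 for Tnfrsf4 with Tnfrsf1b and 0.034 for Cd27 with Cd70 (-0.25 as they are). The few swaps within numbers allow no pair to pass there. Depth limits Cd70 and Tnfrsf14 most, at 187 and 474 reads in all.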
